A study of Danio rerio with 12 samples.

Results

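Collagen genes were followed through 6 experiments in which fluorescent and non-fluorescent cells had been sorted from whole zebrafish embryos (Danio rerio). Members were chosen by name alone, as features called col, a number, the letter a and a number, with an optional letter or copy suffix. This gave 44 of the 32312 features that each deposited table lists. A further 2 features begin the same way but are named for a collagen-binding protein, col4a3bp, and were left out. By collagen type, 6 members are fibrillar (types 1 and 5), 9 are cartilage collagens (types 2, 9, 10, 11 and 27), and 12 belong to basement membranes and their anchors (types 4, 7, 15 and 18). The rest are 3 chains of type 6, 2 of type 8, 5 of the fibril-associated types 12, 14 and 19, 5 of the membrane-spanning types 13, 17 and 25, and 2 of type 28.

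Collagens are secreted proteins of triple-helical chains, and which chains a cell makes depends on the matrix it builds. Fibrillar collagens form the ropes of skin, tendon and bone, cartilage collagens fill the sheath of the notochord as well as cartilage, and basement membrane collagens form the sheets under epithelia and around vessels and muscle. Neurons of the brain are not known as main producers of fibrils, which in the early fish come largely from skin, mesenchyme, notochord and muscle precursors.

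The study labelled catecholaminergic cells, which make dopamine or noradrenaline, with GFP in 4 ways, and compared GFP-positive with GFP-negative cells sorted by flow cytometry after dissociation. At 24 h after fertilization the lines were ETvmat2:GFP, an enhancer trap for the vesicular monoamine transporter, and Tg(otpb.A:egfp)zc48, which carries an enhancer of the homeobox gene otpb. At 36 and 48 h a th:Gal4VP16 driver was combined with a UAS:EGFP responder, and at 72 and 96 h a th:GFP BAC was used, th being the gene for tyrosine hydroxylase. Both groups of a pair, the GFP-negative cells included, are labelled with the same transgenic line, and the study's design text states that both 24 h lines also label cells that are not catecholaminergic at later stages and that both th lines label early neurons poorly. The 4 libraries at 24 h were made by NanoCAGE, which reads capped 5′ ends of total RNA, and the 8 later ones by sequencing amplified polyadenylated RNA. Each group has 1 library, so no value has a replicate error, a difference describes 2 libraries, and no p-value is given. The number of animals and of cells behind a library is not given in the labels. In sorted bulk samples like these, fewer cells of a type and less RNA per cell cannot be told apart.

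The pairs differed widely in depth. Reads over exons came to 1173909 (GFP-negative) and 918362 (GFP-positive) in the vmat2 pair and 1367216 and 495373 in the otpb pair. They lay between 21326333 and 27682819 in the 36 and 48 h libraries and between 52869 and 79653 in the 72 and 96 h libraries. Read counts are given GFP-negative first throughout. The catecholaminergic marker th had 0 against 15 reads in the vmat2 pair, 0 against 1 in the otpb pair, 18 against 44 at 36 h, 31 against 272 at 48 h, 0 against 13 at 72 h and 0 against 10 at 96 h. A list of 16 neuronal genes was lower in the GFP-positive library by summed reads in the vmat2, 36 h and 48 h pairs (log2 ratio -0.59, -0.35 and -0.83) and higher in the otpb and 72 h pairs (0.58 and 1.34). The vmat2 sum turned to 0.04 when libraries were scaled on total reads alone, and the median of its 7 considered genes was 0.41. Of these 7, elavl4, snap25a and stmn2a met the minimum for being considered (defined below) through the GFP-positive library alone, which favours a higher median. At 36 and 48 h keratin and other epidermal genes were higher in the GFP-positive library by 4.14 and 3.87 on the log2 scale, hatching gland genes by 7.63 and 4.18, and muscle genes by 2.53 and 1.65. At least 2-fold higher were 11 of 14 and 10 of 15 considered epidermal genes, against 13.9% and 17.6% of all considered features. All 4 hatching gland genes were so at both ages, as were 5 of 15 and 11 of 15 muscle genes. The 5 muscle genes at 36 h were the heart genes vmhc, myh6, myl7, cmlc1 and tnnt2a. These 5 genes, and he1b of the hatching gland, met the minimum for being considered at 36 h through the GFP-positive library alone. At 48 h vmhc and tnnt2a, both among the 11 muscle genes higher, did so too. Such a choice favours genes that are higher in GFP-positive cells. The other considered muscle genes at 36 h lay between -1.41 and 0.79. At 24 h hatching gland genes were also higher by summed reads, by 3.10 in the vmat2 and 3.16 in the otpb pair. Muscle genes stood at 1.41 and -0.50 there, and epidermal genes at 0.37 and 0.20. Of 10 considered muscle genes in the vmat2 pair, 4 were at least 2-fold higher (24.9% of all features) and 5 lower (15.7%). The median of these 10 genes was -0.76. Those higher were the heart genes vmhc (7 reads against 1202), myh6, myl7 and tnnt2a, which met the minimum through the GFP-positive library alone. The part of these tissues in the collagen values of these pairs was not tested.

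Of the 44 members, 42 had a read in some library. The type 8 gene col8a1b and the type 28 feature COL28A1 (2 of 2) had none in any of the 12 libraries. In each pair a feature was considered where its larger library held at least 5 CPM (reads scaled on library size) and 20 reads. 28 members met this somewhere, 15 in at least 4 experiments, and the 3 type 1 chains col1a1a, col1a1b and col1a2 in all 6. The other 16 members were never considered. The 14 of these with reads had at most 252 over all libraries (col17a1a), and COL15A1 (3 of 3) had 1. Only 7 members had reads in every library. They were the 3 type 1 chains, col4a5, col4a6, col18a1 and col11a1a.

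All ratios below are log2 of GFP-positive over GFP-negative after TMM scaling, with a prior count of 2 for single genes and none for sums. Intervals are exact 95% intervals of the read ratio, without the prior count, and cover counting error only. Scaling on total reads alone instead moved the ratios of all considered features by a median of 0.59 (vmat2), 0.41 (otpb), -0.74 (36 h), 0.14 (48 h), 0.21 (72 h) and 0.09 (96 h). A ratio that changes sign under this scaling is given with both values. The difference between the ratios of 2 gene groups in a pair does not depend on the scaling.

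In the vmat2 pair 24 members were considered, and 13 were at least 2-fold lower in GFP-positive cells, against 15.7% of all considered features. None was 2-fold higher, against 24.9% of all. On total reads 7 were lower (6.74% of all) and 2 higher (40.3% of all). The otpb pair showed the reverse, with 9 of 24 higher (10.2% of all) and 1 lower (25.8% of all), or 0 lower (16.5%) on total reads. At 36 h 4 of 19 were higher (13.9% of all) and none lower (10.4% of all), but scaling on total reads gave 0 higher (6.96%) and 3 lower (40.1%). At 48 h 1 of 19 was higher (17.6% of all) and 3 were lower (6.53% of all), of which total reads left 1 lower (4.12%). All 3 considered members were lower at 72 h (22.7% of all lower, 5.06% higher), as were 2 of 3 at 96 h (7.02% lower, 3.73% higher). Those at 72 h met the minimum through the GFP-negative library alone, which favours genes lower in GFP-positive cells. So did col1a2 at 96 h, col9a3 at 48 h, and col11a2, col9a2, col9a3, col4a3 and COL13A1 of the vmat2 pair, all among those lower. Of those higher, col12a1 in the otpb pair and COL7A1 at 48 h met it through the GFP-positive library alone. The median ratio of considered members was -1.25 in the vmat2 pair, where the median of all considered features was 0.10, and 0.24 in the otpb pair, where that of all features was -0.44. It was 0.13 (but -0.61 on total reads) at 36 h and 0.18 at 48 h. The medians of all features were -0.09 (-0.82 on total reads) at 36 h and -0.08 (but 0.06 on total reads) at 48 h.

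**Figure D1:**
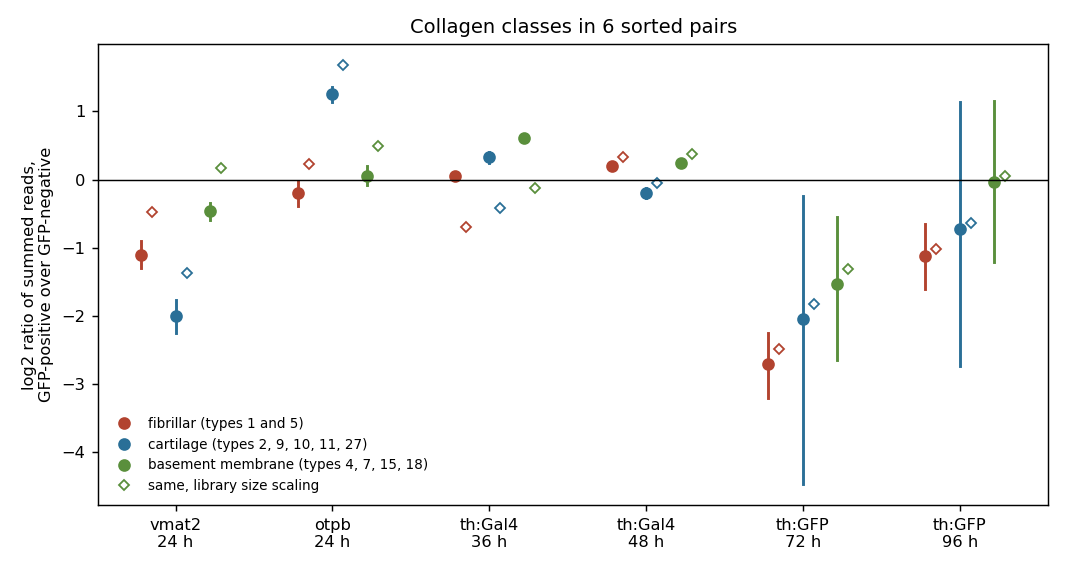
Log2 ratio of summed reads (GFP-positive over GFP-negative) of the fibrillar, cartilage and basement membrane collagens in the 6 pairs. Filled points are TMM-scaled values with exact 95% counting intervals and open diamonds the same sums scaled on total reads. The cartilage collagens lie at -2.01 in the vmat2 pair and at 1.25 in the otpb pair, and all 3 classes lie on the other side of 0 at 36 h under the other scaling.

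The largest contrast between classes was in the cartilage collagens at 24 h. Their summed reads were 640 in GFP-negative and 193 in GFP-positive cells of the vmat2 pair, 4.02-fold lower on the linear scale (-2.01, interval -2.25 to -1.77). The otpb pair held 1188 against 1381, 2.38-fold higher (1.25, 1.14 to 1.36). Relative to the basement membrane collagens of the same libraries the cartilage collagens differed by -1.54 (interval -1.81 to -1.27) in the vmat2 pair and by 1.19 (1.01 to 1.37) in the otpb pair. The class made up 23.5% and 10.1% of collagen reads in the vmat2 pair, and 34.4% and 54.1% in the otpb pair. The difference between the 2 pairs was not tested, as each has 1 library a group.

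All 7 considered cartilage members were at least 2-fold lower in GFP-positive cells of the vmat2 pair, where 15.7% of all features were, and on total reads 5 of 7 were. Of these 7, col11a2, col9a2 and col9a3 met the minimum through the GFP-negative library alone, which favours lower genes. The others, col2a1a, col9a1, col11a1a and col11a1b, met it in both libraries. In the otpb pair 5 of 7 were at least 2-fold higher, against 10.2% of all features. The type 2 gene col2a1a (chromosome 8, 21733438 to 21757491 on Zv9) encodes the main fibril of cartilage and notochord sheath. It had 133 reads in GFP-negative and 29 in GFP-positive vmat2 cells (-2.39, -3.11 to -1.89), and 231 against 246 in otpb cells (1.11, 0.86 to 1.39). In the vmat2 table only 35.2% of its reads were unique to it, and its span overlaps cpt2, so its level is uncertain, while the 3 chains of type 9 had only unique reads there. These chains, which coat type 2 fibrils, had like ratios. col9a1 (chromosome 13, 39679469 to 39719819) had 100 against 31 reads in the vmat2 pair (-1.89) and 189 against 322 in the otpb pair (1.79, 1.54 to 2.07). col9a2 had 79 against 17 (-2.35) and 160 against 180 (1.19). col9a3 had 45 against 9 (-2.34) and 67 against 115 (1.77). All 3 were thus lower in vmat2 and higher in otpb GFP-positive cells, under both scalings.

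The type 11 chains, which nucleate the same fibrils, did not all follow. col11a2 (chromosome 19, 7802938 to 7847742) showed the largest ratio of any considered member in both pairs, with 37 reads against 2 in vmat2 cells (-3.49, -7.58 to -2.53) and 77 against 183 in otpb cells (2.24, 1.89 to 2.68). col11a1a had 166 against 74 (-1.42) and 286 against 265 (0.92, 0.67 to 1.17). col11a1b had 71 against 28 in the vmat2 pair (-1.55), and in the otpb pair 163 against 53 (-0.58, -1.06 to -0.13), where it was the 1 considered cartilage member below 0. The type 27 gene col27a1a had too few reads to be considered (9 against 3 and 15 against 17), and col10a1, a collagen of maturing cartilage, had none at 24 h.

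**Figure D2:**
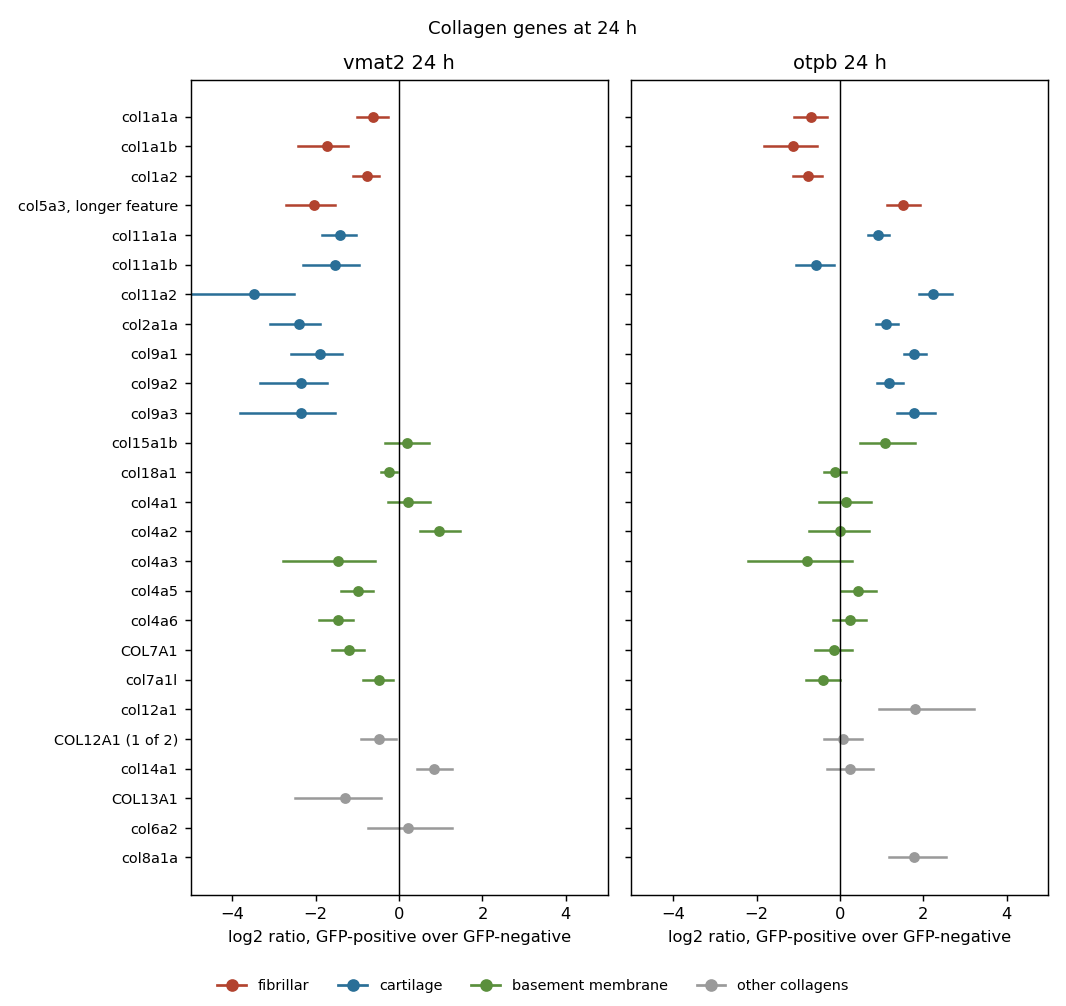
Log2 ratio (GFP-positive over GFP-negative) of every considered collagen gene in the vmat2 and otpb pairs at 24 h, coloured by class, with exact 95% counting intervals. All 7 cartilage genes lie below -1 in the vmat2 panel, and 6 of 7 above 0 in the otpb panel. The interval of col11a2 in the vmat2 panel is drawn to the axis limit of -5 and reaches -7.58.

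Notochord genes were mostly higher beside the cartilage collagens in the otpb pair and mixed in the vmat2 pair. Of 8 listed notochord features found in the files, 4 were considered in the otpb pair and all 4 were at least 2-fold higher in GFP-positive cells (10.2% of all features), their list summing to 211 reads against 693 (2.75, 2.52 to 2.98). calymmin, cmn, a notochord sheath protein in zebrafish, had 89 against 441 reads (3.30), and emilin3a 20 against 115 (3.39). The early notochord regulator ntla had 7 against 16, and flh 0 against 2. In the vmat2 pair the list summed to 132 against 69 reads (-1.21), with cmn at 59 against 6 (-3.17) and shha at 36 against 13 (-1.59). The third considered gene, cav1 of caveolae, which other tissues also express, went the other way with 10 against 35 (1.38, 0.49 to 2.71) and gave most of the GFP-positive reads. Of the listed genes not considered there, emilin3a had 12 against 2 reads and ctgf 10 against 13. ntla had 4 against 0 reads, shhb 1 against 0 and flh none in either library. Cartilage matrix genes and regulators other than collagens were higher by summed reads in both pairs (vmat2 0.50, otpb 1.16). In the vmat2 pair this sum was carried by the link protein genes hapln1a (240 reads against 425) and hapln1b (4 against 246), while comp (59 against 13, -2.28) and sox5 (72 against 23, -1.83) were lower. Of 5 considered genes there, 1 was at least 2-fold higher (24.9% of all features) and 2 were lower (15.7%), with a median of 0.36. hapln1b met the minimum through the GFP-positive library alone, and comp through the GFP-negative library alone. In the otpb pair hapln1a (309 against 546, 1.84) held most of the list's 760 GFP-positive reads, and comp was lower (81 against 14, -1.42). There 1 of 6 considered genes was at least 2-fold higher (10.2% of all features) and 2 were lower (25.8%). The median of these 6 genes was 0.01. matn1 and the aggrecan copy ACAN (2 of 2) were at 0 in all 4 libraries. The part of notochord cells in the collagen ratios was not tested.

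At 36 h the cartilage sum was higher in GFP-positive cells by 0.33 (2991 reads against 2398) but -0.41 on total reads, and at 48 h it was lower (3155 against 2741, -0.19). These sums were dominated by col11a1a, with 1565 against 1530 reads at 36 h (0.61, but -0.13 on total reads) and 1544 against 1988 at 48 h (0.38). The other considered genes of the class stood apart from it at 48 h. col9a1 had 427 against 192 reads (-1.13, -1.40 to -0.89), col9a2 429 against 208 (-1.03) and col9a3 353 against 114 (-1.60, -1.94 to -1.31). All 3 type 9 chains were at least 2-fold lower at that age by TMM, and col9a3 alone on total reads. At that age col9a3 met the minimum through the GFP-negative library alone, which favours lower genes, and col9a1 and col9a2 met it in both. col2a1a had 185 against 120 (-0.61, -0.96 to -0.27), and at 36 h 602 against 386 (0.01, but -0.73 on total reads). Without col11a1a the cartilage sum at 48 h was -1.09.

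Relative to the type 1 chains, type 9 differed by -1.36 in the vmat2 pair (interval -1.86 to -0.88), by 2.41 in the otpb pair (2.11 to 2.71), by -0.05 at 36 h (-0.23 to 0.13) and by -1.42 at 48 h (-1.58 to -1.27). In the same line, the type 9 ratio was lower at 48 than at 36 h, by a difference of -1.23 (interval -1.461 to -1.001), or -0.35 on total reads. The difference was -1.69 for col9a1 and -1.48 for col9a3 (-0.81 and -0.60 on total reads), while for col9a2 it was -0.54 but 0.34 on total reads. Of 8 considered cartilage matrix genes and regulators other than collagens at 48 h, 3 were at least 2-fold lower, against 6.53% of all features. They were the matrix genes lect1 (638 against 284, -1.15), epyc (284 against 120, -1.22) and hapln1a (8633 against 3955, -1.11, and -0.98 on total reads). The transcription factor gene runx3 was the 1 higher (63 against 169, 1.41), where 17.6% of all features were. The notochord list was higher by summed reads at both ages (1.47 and 0.91), but its largest ratio was that of cav1 (478 against 2278, 2.89, and 252 against 1529, 2.60). The other markers differed in direction, with shha at -0.46 and -0.21, cmn at -0.48 and -0.35, ntla at -2.18 and -0.14, and flh at 1.49 and 1.67, and of these shha alone was considered. At 48 h col10a1 had 8 reads in the GFP-negative library and 0 in the other.

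Among the fibrillar collagens, the type 1 chains of skin, tendon and bone held most reads. They made up 16.5% and 15.3% of collagen reads in the vmat2 pair, 19.5% and 7.41% in the otpb pair, 54.0% and 45.5% at 36 h, and 66.1% and 67.5% at 48 h. At 72 h they held 82.3% and 73.7%, and at 96 h 82.4% and 73.8%. NanoCAGE and the later assay cannot be set against each other in these shares, since 5′ ends and whole transcripts are read differently.

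**Figure D3:**
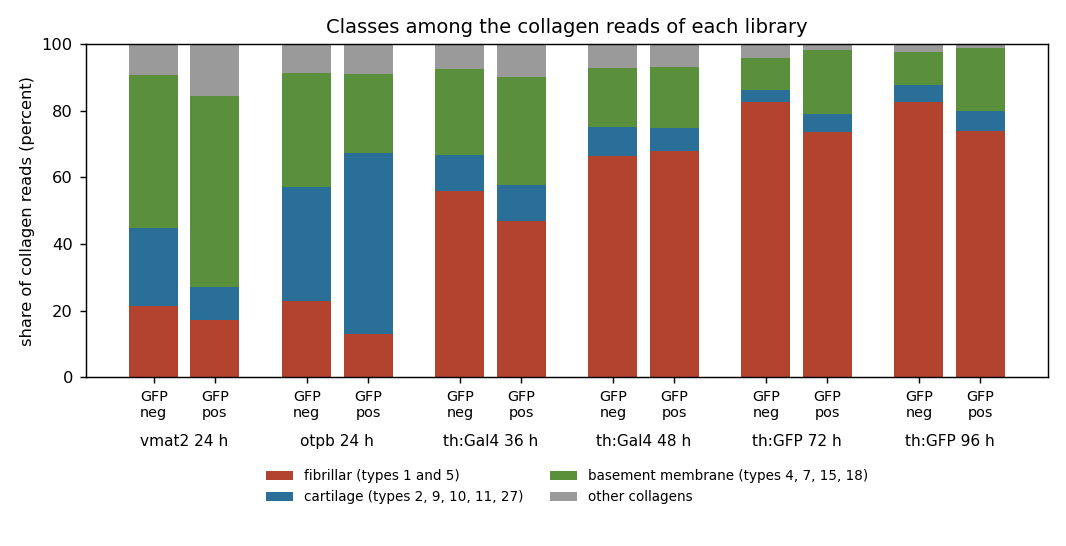
Share of each library's collagen reads (percent) held by the fibrillar, cartilage, basement membrane and other collagens, GFP-negative beside GFP-positive in each of the 6 pairs. The cartilage share of the otpb pair is 34.4% in GFP-negative and 54.1% in GFP-positive cells, and fibrillar collagens hold between 73.7% and 82.5% of the collagen reads at 72 and 96 h.

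All type 1 chains were lower in GFP-positive cells at 24 h, except col1a1a in the vmat2 pair on total reads. col1a1a (chromosome 3, 23512288 to 23530699) had 143 against 112 reads in the vmat2 pair (-0.62, but 0.00 on total reads) and 242 against 73 in the otpb pair (-0.69, -1.10 to -0.31). Its duplicate col1a1b had 95 against 33 (-1.74, -2.42 to -1.22) and 124 against 27 (-1.13). The partner chain col1a2 had 212 against 149 (-0.78) and 310 against 89 (-0.76). The duplicates were not equally low in the vmat2 pair, where the ratio of col1a1a exceeded that of col1a1b by 1.17 (0.47 to 1.90). The same difference was 0.47 in the otpb pair, with an interval of -0.27 to 1.24. The span of col1a2 overlaps another feature, si:ch211-120e1.7.

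Type 5, which sits inside type 1 fibrils, went the other way in the otpb pair. The longer of the adjacent col5a3 features (chromosome 3, 54468571 to 54614778) had 117 against 33 reads in the vmat2 pair (-2.03, -2.71 to -1.53) and 92 against 130 in the otpb pair (1.50, 1.13 to 1.93), while type 1 was lower in both. The shorter feature, 591 bases away, had 10 against 0 and 11 against 15 reads. Only 36.0% and 40.0% of the reads of the longer and shorter feature were unique to them in the vmat2 table. The type 5 feature COL5A2 (2 of 2) had at most 7 reads in a library. The fibrillar sum of the otpb pair was -0.20, but 0.23 on total reads and 0.07 without col1a2.

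At 36 h the type 1 chains had similar TMM ratios. col1a1a had 5832 against 3785 reads (0.02, but -0.72 on total reads), col1a1b 3361 against 1926 (-0.16) and col1a2 5696 against 4172 (0.20, but -0.54 on total reads). At 48 h the counts were 12275 against 11906 (-0.03, -0.07 to 0.00, but 0.10 on total reads), 4597 against 6612 (0.54, 0.48 to 0.59) and 6736 against 8386 (0.33). Among them col1a1b stood highest at 48 h and lowest at 36 h. The ratio of col1a1a minus that of col1a1b was 0.18 at 36 h (0.08 to 0.28) and -0.57 at 48 h (-0.63 to -0.50).

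Only the type 1 chains had enough reads to be considered at 72 and 96 h, in libraries of at most 79653 exon reads. At 72 h col1a1a had 173 reads in GFP-negative and 19 in GFP-positive cells (-2.71, -3.59 to -2.14), col1a1b 125 against 12 (-2.85, -4.01 to -2.16) and col1a2 55 against 11 (-1.80, -3.04 to -1.01). At 96 h the counts were 53 against 26 (-1.21), 27 against 22 (-0.50, -1.42 to 0.33) and 28 against 11 (-1.43). The summed fibrillar reads were 6.55-fold lower at 72 h and 2.17-fold lower at 96 h. The ratio was higher at 96 h by 1.59 (0.94 to 2.24), and by 1.46 on total reads, without a replicate at either age. Per length, col1a1a stood at 303 RPKM (reads scaled on gene length and library size) in GFP-negative cells at 72 h and at 44.1 in GFP-positive cells, and at 101 and 50.2 at 96 h. Its level was thus lower at 96 than at 72 h in the GFP-negative libraries and close to even in the GFP-positive ones.

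Genes of other tissues were lower beside type 1 at 72 h. All 8 considered epidermal genes and all 6 considered muscle genes were at least 2-fold lower in GFP-positive cells, against 22.7% of all features (summed ratios -2.59 and -2.58), as were both considered fibroblast and mesenchyme genes (-2.56). That mesenchyme list held 99 reads against 13, with 11 of its 21 features at 0 in GFP-negative and 16 in GFP-positive cells. Apart from krt4 and actc1b, the considered genes of these lists met the read minimum through the GFP-negative library alone, as the type 1 chains did. Such a choice favours genes that are lower in GFP-positive cells. The summed ratios include all features of each list, considered or not. At 96 h the epidermal sum was -0.01 (interval -0.19 to 0.18, and 0.09 on total reads), the muscle sum -1.71 and the mesenchyme sum -1.83. The part of these tissues in the type 1 ratios was not tested.

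**Figure D4:**
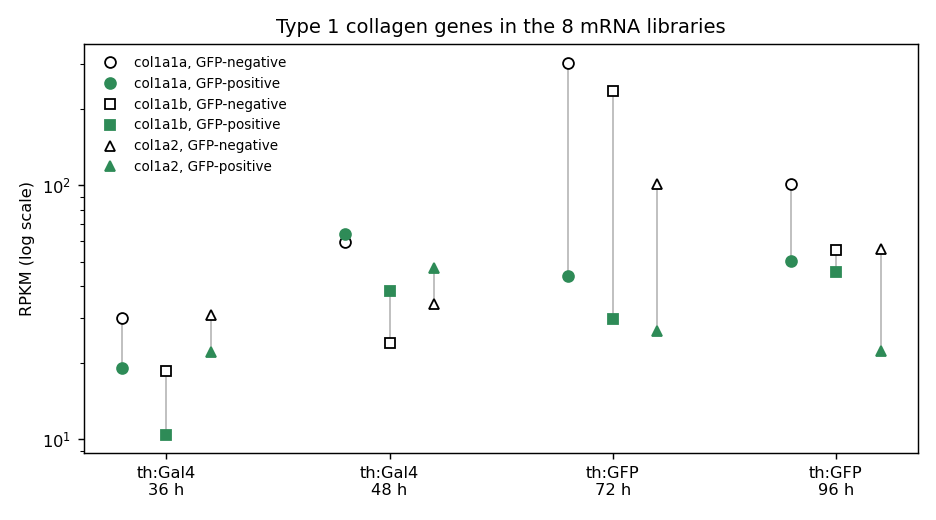
Levels of the 3 type 1 collagen genes per length (RPKM, log scale) in the 8 mRNA libraries at 36, 48, 72 and 96 h. Open symbols are GFP-negative and filled symbols GFP-positive libraries, 1 library each, joined by grey lines. The largest gaps are at 72 h, where col1a1a stands at 303 RPKM in GFP-negative and 44.1 in GFP-positive cells.

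Basement membrane collagens had the summed ratios nearest to 0 of the 3 classes at 24 h by TMM. They held 1253 against 1098 reads in the vmat2 pair (-0.47, -0.59 to -0.35), a ratio that turned to 0.16 on total reads. The otpb pair held 1185 against 604 (0.06, -0.08 to 0.20, and 0.49 on total reads). The type 4 chains, the network of every basement membrane, lie in head-to-head pairs, and in these files col4a6 and col4a5 are 1093 bases apart on chromosome 7, col4a4 and col4a3 1740 on chromosome 15, and col4a1 and col4a2 57771 on chromosome 9.

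The pairs of type 4 chains parted in the vmat2 libraries. col4a2 (chromosome 9, 8773012 to 8941992) had 52 against 124 reads (0.95, 0.50 to 1.47) and col4a1 57 against 81 (0.22, -0.28 to 0.75). col4a5 had 153 against 93 (-0.98) and col4a6 175 against 75 (-1.47, -1.91 to -1.10). col4a1 and col4a2 together exceeded col4a5 and col4a6 by 1.87 (1.43 to 2.32). In the otpb pair the same difference was -0.26 with an interval of -0.81 to 0.29. There col4a1 had 65 against 35 reads (0.13), col4a2 53 against 26 (0.00), col4a5 120 against 80 (0.44) and col4a6 144 against 83 (0.23).

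Endothelial and leukocyte genes were high in the same vmat2 GFP-positive library. All 14 considered genes of that list were at least 2-fold higher, against 24.9% of all features. Apart from kdrl and stab2, they met the read minimum through the GFP-positive library alone, which favours genes higher in GFP-positive cells. The whole list, considered or not, summed to 167 reads against 4376 (4.43), with the vessel genes kdrl at 41 against 761 and cdh5 at 11 against 548. coro1a, spi1, ptprc and mpx, marks of leukocytes, were at 0 in the GFP-negative library. The list was lower in the otpb pair (807 against 146, -1.44). The laminin chain gene lama4 (46 against 132, 1.21) and the skin basement membrane gene frem2a (12 against 57, 1.82) were also higher in vmat2 GFP-positive cells. Their list as a whole did not stand above all features, with 3 of 15 considered genes at least 2-fold higher (24.9% of all) and 1 lower (15.7% of all). The part of vessel cells in the col4a1 and col4a2 ratios was not tested.

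At 36 h col4a1 was low (258 against 91 reads, -0.84, -1.22 to -0.51). It differed by -1.52 (-2.11 to -0.93) from col4a2, whose chain joins it in the same molecule. col4a2 had too few reads to be considered at that age. At 48 h col4a1 had 121 against 168 (0.48) and col4a2 125 against 141 (0.18). The col4a1 ratio was 1.34 higher at 48 than at 36 h (0.86 to 1.82), and 2.22 on total reads. col4a5 and col4a6 held most type 4 reads at both ages. col4a5 had 2126 against 1483 at 36 h (0.13, but -0.61 on total reads) and 2097 against 2387 at 48 h (0.20), and col4a6 had 2077 against 1368 (0.05, but -0.70) and 1692 against 1528 (-0.14). col4a3 and col4a4 together exceeded col4a5 and col4a6 at both ages, by 0.91 (0.65 to 1.17) and 0.86 (0.52 to 1.20). col4a4 alone was considered, at 36 h, with 180 against 236 reads (1.03).

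col18a1 (chromosome 9, 42894656 to 43052548), whose cleaved end is endostatin, held most reads of the class at 24 and 36 h. It had 408 against 419 reads in the vmat2 pair (-0.24, but 0.39 on total reads), 383 against 173 in the otpb pair (-0.11, -0.38 to 0.15, but 0.32 on total reads), 1917 against 3447 at 36 h (1.49, 1.41 to 1.58) and 1768 against 2408 at 48 h (0.46). The 36 h ratio remained above 0 on total reads (0.75). Leaving out col18a1 took the basement membrane sum of that pair, which was 0.62 (but -0.13 on total reads), to 0.09 by TMM. The sum without col18a1 also lies below 0 on total reads. The relative of col18a1, col15a1b, had 53 against 73 (0.18), 40 against 43 (1.09, 0.48 to 1.79), 381 against 128 at 36 h (-0.92, -1.23 to -0.63) and 260 against 306 at 48 h (0.24). In the 36 h pair col18a1 was thus higher and col15a1b lower, under both scalings.

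Type 7 forms the fibrils that anchor skin to its basement membrane. COL7A1 had 172 against 89 reads in the vmat2 pair (-1.21, -1.61 to -0.85), 147 against 65 in the otpb pair (-0.14, but 0.28 on total reads) and 81 against 179 at 48 h (1.14, 0.77 to 1.55), where it was the 1 member at least 2-fold higher. At 48 h COL7A1 met the minimum through the GFP-positive library alone, which favours higher genes. col7a1l had 141 against 121 (-0.49, but 0.13 on total reads) and 190 against 70 (-0.40, but 0.02) at 24 h. At 72 h the whole basement membrane class held 41 against 11 reads (-1.53, -2.64 to -0.55), and at 96 h 13 against 15 (-0.04, -1.21 to 1.15, and 0.06 on total reads). At both ages the intervals of the differences between the 3 classes included 0, so a difference between them was not detectable at this depth.

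**Figure D5:**
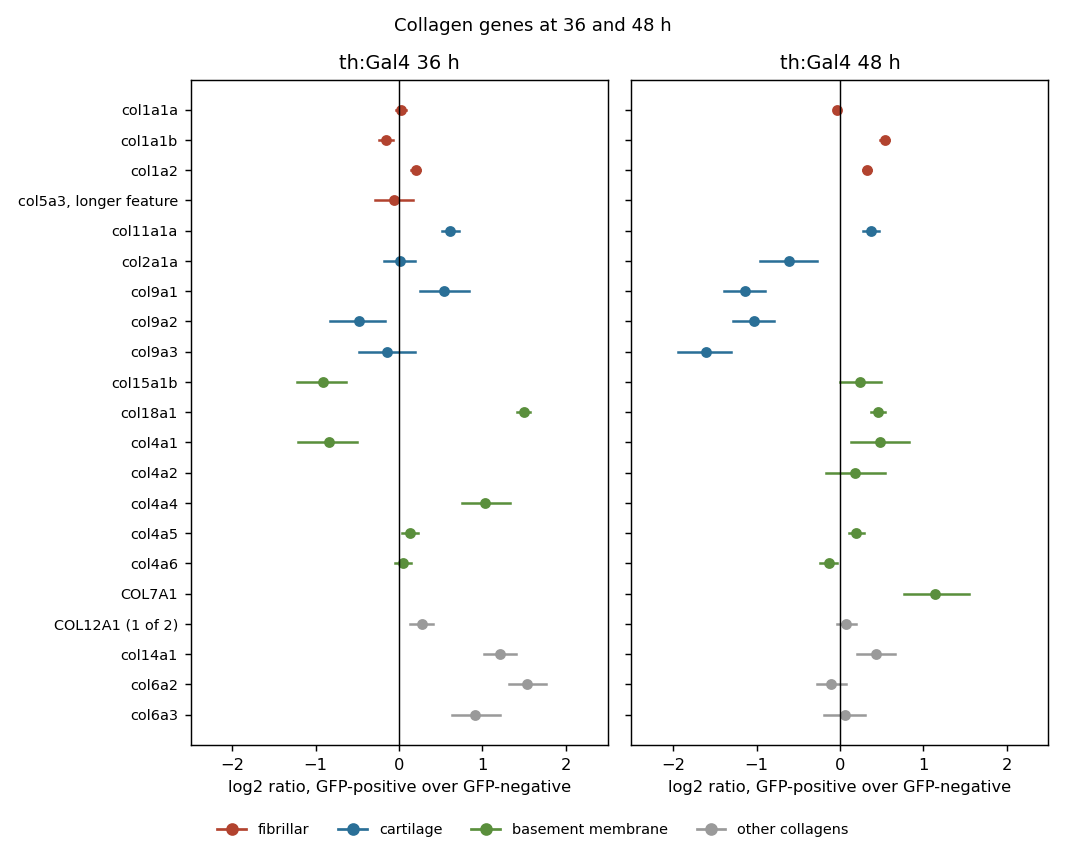
Log2 ratio (GFP-positive over GFP-negative) of every considered collagen gene at 36 and 48 h in the th:Gal4 line, coloured by class, with exact 95% counting intervals. The type 9 genes lie between -1.60 and -1.03 at 48 h, and col6a2 (1.53) and col18a1 (1.49) lie highest at 36 h, where scaling on total reads moves the points by a median of -0.74.

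The remaining collagens included several of the largest ratios. The type 6 chain col6a2, of the beaded filaments around muscle, had 258 against 479 reads at 36 h (1.53, 1.32 to 1.76, and 0.79 on total reads) and 563 against 520 at 48 h (-0.10, but 0.03 on total reads). Its partner col6a3 had 183 against 221 at 36 h (0.91) and 280 against 289 at 48 h (0.06), while col6a1 had 30 against 4 and 15 against 12 and was not considered. The type 6 ratio was lower at 48 than at 36 h, by a difference of -1.28, or -0.40 on total reads. At 24 h the class had few reads, with col6a2 at 16 against 23 in the vmat2 pair (0.22).

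The fibril-associated collagens bind to the surface of other fibrils. col14a1 was higher in the vmat2 pair (71 against 155, 0.83, 0.44 to 1.28) and at 36 h (366 against 541, 1.21, and 0.47 on total reads), with 81 against 47 in the otpb pair (0.24) and 269 against 360 at 48 h (0.43). COL12A1 (1 of 2) had 101 against 87 (-0.48, but 0.14 on total reads), 126 against 65 (0.08), 1030 against 793 (0.27, but -0.47) and 1290 against 1350 (0.08). The other type 12 feature, col12a1, had 11 against 22 reads in the otpb pair (1.80, 0.93 to 3.22). col19a1, only 3496 bases from col9a1 on chromosome 13, did not follow its neighbour at 48 h, with 17 against 74 reads, but was too low to be considered.

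The short-chain collagen col8a1a had 30 against 53 reads in the otpb pair (1.76, 1.18 to 2.55). In the vmat2 pair it had 13 against 0. The membrane-spanning COL13A1 had 29 against 13 in the vmat2 pair (-1.30, -2.50 to -0.45) and 17 against 12 in the otpb pair. The hemidesmosome collagens col17a1a and col17a1b had 67 against 29 and 53 against 34 reads at 36 h, and 67 against 85 and 63 against 33 at 48 h. The type 25 and type 28 features had at most 16 reads in a library.

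Of 24 features found in the files for genes that fold and modify collagen, 17 were considered in the vmat2 pair. There 3 were at least 2-fold higher (24.9% of all features) and 1 lower (15.7%), with a median of 0.06. In 13 considered in the otpb pair, 4 were higher (10.2% of all) and none lower (25.8%), with a median of 0.40. Of these 4, plod3, fkbp10 and leprel2 met the minimum through the GFP-positive library alone, which favours higher genes, and p4ha1 met it in both libraries. At 36 and 48 h 3 of 18 were higher (13.9% and 17.6% of all) and none lower (10.4% and 6.53%). Apart from the otpb pair, the shares higher were thus near or below those of all features. In the vmat2 pair, where most collagens were low, the COPII coat gene sec24d had 16 reads against 69 (1.72) and the collagen galactosyltransferase feature glt25d1 0 against 20. Both met the minimum through the GFP-positive library alone, which favours higher genes. A second feature of that galactosyltransferase name, GLT25D1 (2 of 3), had 42 against 74 reads in the vmat2 pair (0.52, -0.03 to 1.12). A prolyl hydroxylase subunit gene, listed as si:ch211-146f4.5 and matched to p4ha1a in RefSeq, was lower there (21 against 4, -2.16). In the otpb pair the lysyl hydroxylase plod3 had 7 against 46 (3.32, 2.59 to 5.14) and the chaperone fkbp10 12 against 29 (2.08). The collagen chaperone hsp47, named after its values were seen, had 59 against 39 in the vmat2 pair (-0.84) and 53 against 23 in the otpb pair (-0.16, but 0.25 on total reads).

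Of the genes that process or break down collagen, 5 of 9 considered in the vmat2 pair were at least 2-fold higher (24.9% of all features) and 1 was lower (15.7%). The collagenase mmp13a had 0 reads against 90, and the procollagen protease tll1 17 against 170 (2.92), while mmp14a was lower (26 against 8, -1.73). mmp13a and tll1 met the minimum through the GFP-positive library alone, and mmp14a through the GFP-negative library alone. Such a choice favours genes that differ in that direction. The rest of those higher, mmp14b and both MMP15 features, met it in both libraries. At 48 h mmp13a was lower (956 against 317, -1.58) and the lysyl oxidase LOXL4 (3 of 3) higher (14 against 510, 5.01), in a list with 2 of 12 higher and 1 lower, shares near the 17.6% and 6.53% of all features. Among receptors, the integrin chain itgb1b had 36 against 144 in the vmat2 pair (1.67) and the collagen receptor kinase DDR1 57 against 20 (-1.68). At 72 h sparc, a collagen-binding protein of basement membranes, was the 1 considered gene of its list and was lower (93 against 9, -2.78), as the type 1 chains were.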

How the data were processed

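The members, gene lists and settings were chosen with earlier results of these data known. Per the file headers, the authors deposited for the vmat2 pair whole-number counts of exon reads and RPKM values on Zv9 coordinates. The aligner is not given in the sources used here. In all 6 tables the authors deposited a difference and a signed fold change of RPKM between the libraries, recorded as a score because neither has a fixed range. The other 5 tables repeat their column names, so 174 columns were not tied to a sample and were not used. Reads were recovered from the difference and the fold change: all values were within 0.02 of a whole number in the 12 libraries, and in the vmat2 table they equalled the deposited counts in all 17237 features with a difference. That the other 5 tables share the vmat2 table's direction was read from their sheet heading; if one did not, its directions would turn. Where design and files differ, recovered reads replace count columns.

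Reads were scaled with TMM in edgeR 4.0.16 (R 4.3.3) against the GFP-negative library. Exact intervals were computed with scipy 1.17.1 in Python 3.11.15. Gene groups were compared by exact conditional odds ratios, and ages by a normal approximation from 4 sums. The scaling step was checked on simulated data in which equal numbers of genes were raised and lowered. That setting does not show how TMM performs where changes go mainly in a single direction. A call is at least 2-fold. Named are, in each class, the 3 members with most reads and, over all classes, the 3 considered members with the largest ratio in each direction whose interval excludes 0; other considered members are named too where the text describes their group. In other lists the 2 with the largest ratio each way could be named, and cell type markers that define a list were added after their values were seen. Alternatives were scaling on total reads, RLE size factors, other minimums, a prior count of 0.5, unique reads in the vmat2 table, leaving out a class's deepest member, and placing all fibril-forming types in 1 class. Gly-X-Y content of the proteins was not analysed here. No gene was tested for a difference, since each group has 1 library.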

Additional observations from a re-analysis of the deposited data

Results flagged for a closer look

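The cartilage collagens differed in direction between the 24 h lines. Their summed log2 ratio of GFP-positive over GFP-negative reads was -2.01 in the vmat2 pair and 1.25 in the otpb pair. The same class had a ratio of 0.33 at 36 h and -0.19 at 48 h in the th:Gal4 line. Each pair has 1 library a group, so neither difference was tested. The 24 h contrast held on total reads (-1.38 and 1.68), while at 36 h the direction turned.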

How the results depend on the processing

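Each group has 1 library, so leaving out a replicate was not possible. No paired analysis was possible because each group has 1 library. Intervals cover counting error only, and at 72 and 96 h depth left 3 members considered.

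With scaling on total reads the vmat2 sums became -0.47 (fibrillar), -1.38 (cartilage) and 0.16 (basement membrane, reversed), and the otpb sums 0.23 (fibrillar, reversed), 1.68 and 0.49. At 36 h all 3 reversed, to -0.69, -0.41 and -0.13. At 48 h they were 0.34, -0.057 and 0.38. The members called became 2 higher and 7 lower in the vmat2 pair, 0 lower in the otpb pair, 0 higher and 3 lower at 36 h and 1 lower at 48 h. Reversed single genes whose interval excluded 0 were col7a1l (0.024), COL12A1 (1 of 2) (0.14), col18a1 (0.39), col1a1a (0.0016) and col7a1l (0.13) among the 24 h pairs (the first in the otpb pair, the rest in the vmat2 pair), and at 36 h COL12A1 (1 of 2) (-0.47), col11a1a (-0.13), col1a2 (-0.54), col4a5 (-0.61) and col9a1 (-0.19).

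Without the member with most reads, the vmat2 sums were -1.32, -2.27 and -0.59, and the otpb fibrillar sum reversed to 0.073. The 36 h sums were -0.041 (fibrillar, reversed), -0.068 (cartilage, reversed) and 0.091. The 48 h fibrillar sum was 0.41 and the cartilage sum -1.09. These are TMM-scaled sums, and the basement membrane sums of the vmat2 and 36 h pairs change sign on total reads. With that member left out of each class at once, the 36 h differences were -0.13 (fibrillar minus basement membrane), -0.16 (cartilage minus basement membrane) and 0.027 (fibrillar minus cartilage, reversed). Those at 48 h were 0.15, -1.35 and 1.50.

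With all fibril-forming types as fibrillar, fibrillar minus basement membrane was -0.91 in the vmat2 pair and 0.47 in the otpb pair (reversed). In the otpb pair cartilage minus basement membrane was 1.54 and fibrillar minus cartilage -1.07. The same differences were -0.61 and 0.10 (reversed) in the 36 h pair and -1.47 and 1.43 in the 48 h pair.

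With no minimum, 15 members were higher and 2 lower in the otpb pair. The 36 h pair had 7 higher and 3 lower, the 48 h pair 4 higher and 5 lower, and the 72 h pair 1 higher and 10 lower. The share of all features past 2-fold is not given here without a minimum. These counts therefore cannot be set against it, and they include features with few reads. The stricter minimum gave 0 higher at 48 h and 1 lower at 96 h, as RLE did at 96 h (1 lower). RLE changed no class sum beyond its interval, nor did unique reads in the vmat2 pair, and a prior count of 0.5 changed none of the 118 named ratios. The causes were not tested.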
